A study of Homo sapiens with 31 samples.

Results

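NRF2 target and glutathione synthesis genes were described in xenograft tumours of the human prostate carcinoma cell line PC3. They were 10 genes chosen by name (NQO1, HMOX1, TXNRD1, SRXN1, GCLM, GCLC, SLC7A11, ME1, OSGIN1 and TALDO1), and all 10 were among the 17314 genes of the deposited table that a probe set named alone. Each had 1 probe set. NRF2, encoded by NFE2L2, is a transcription factor that KEAP1 holds back and marks for degradation until oxidants or electrophiles modify KEAP1. It then binds antioxidant response elements together with small MAF proteins and raises genes for quinone reduction, thioredoxin reduction, glutathione synthesis and NADPH supply. BACH1 competes for the same elements, most strongly at HMOX1. Glutathione and NRF2 targets are known for conjugating or reducing electrophiles, among them metabolites of cyclophosphamide.

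The tumours' total RNA was read on 31 arrays of the Affymetrix Human Gene 1.0 ST type, and values are log2 levels. The 4 lines were the unpassaged line (wt, labelled sensitive to cyclophosphamide, CPA) and the in vivo passaged, re-isolated clones A3 (labelled sensitive), D3 and D4 (both labelled resistant). All were implanted and grown to a mean volume of 30 mm3, after which CPA at 120 mg/kg was injected intraperitoneally in 1 group of each line while the other group served as control; CPA is a prodrug that becomes a DNA crosslinking agent after activation in the liver. There were 4 arrays in each of 7 groups and 3 in untreated A3, from which the submitters left out 1 array as an outlier. The study compared CPA-sensitive with CPA-resistant lines with and without the drug, and each clone is a single isolate, so that resistance cannot be told apart from other differences between clones. The labels do not say that every array held the tumour of another animal, and the p-values therefore measure the spread between these samples, which may in part be technical.

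The array medians lay between 6.59 and 6.73, and across genes the correlation between arrays of a group was 0.985 to 0.997. Of 5 epithelial markers EPCAM averaged 8.59, KRT8 9.92, KRT18 10.00, KRT19 10.35 and CDH1 6.27. The prostate antigens KLK2 and KLK3 averaged 5.85 and 5.93. CDH1 was lower than in wt in all 3 untreated clones (-1.03, -0.80 and -0.90). EPCAM (-0.39) and KRT8 (-0.46) were lower in untreated A3, and 0 of the 5 were higher than in wt in any untreated clone. The tumours grew in animals, and a human array can bind RNA of host cells. Of the myeloid markers, PTPRC averaged 3.18, CD163 4.27, LYZ 4.43 and FCER1G 4.43, while TYROBP averaged 6.87 and CD68 8.66. Of the fibroblast markers DCN averaged 3.27 and LUM 3.15, but COL1A1 9.93 and COL1A2 9.40, and of the endothelial markers VWF averaged 5.03 and KDR 8.61. The summed level of 5 endothelial markers was 9.72 to 10.16 in untreated wt, above 9.08 to 9.19 in A3, 9.21 to 9.37 in D3 and 8.90 to 9.20 in D4. Sums were taken over unlogged levels, so that bright markers such as KDR weighed most. The median difference of the 5 from wt was 0.06 in A3, -0.03 in D3 and 0.18 in D4. KDR was lower than in wt in all 3 clones (-1.19, -1.01 and -1.74), PECAM1 was lower in A3 (-0.29) and TEK higher in D4 (0.38). The fibroblast sum of 6 markers overlapped wt (10.85 to 11.07) in A3 (10.66 to 11.05) and D4 (10.71 to 11.14) and lay above it in D3 (11.12 to 11.21). COL3A1 was lower than in wt in all 3 clones (-1.01, -0.61 and -0.77), LUM was lower in A3 (-0.49) and COL1A1 higher in D3 (0.43). The part of these host and epithelial markers in the differences between wt and clones was not tested. The arrays farthest from the mean of their group were untreated D4 replicates 4 and 1, untreated A3 replicate 2 and CPA-treated D3 replicate 5. In bulk tumours fewer cells of a type and less RNA per cell cannot be told apart.

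The sequence that NRF2 recognises was looked for in promoter windows from RefSeq (GRCh38.p14), which reach from 250 bases before to 50 bases after a start. Windows were given for 8 of the 10 genes, 9 in all since TXNRD1 has a pair of starts; HMOX1 and SLC7A11 were not in the table. The core of the antioxidant response element was searched as TGACNNNGC or its reverse complement GCNNNGTCA on both strands, and 13.3% of all 35116 windows held a match. Matches were found for 3 genes, TXNRD1, GCLM and ME1. The AP-1 motif TGANTCA, held by 7.71% of all windows, was matched for ME1 and OSGIN1, and in ME1 it overlaps the core match. The stretches are shown because they are the matches among these genes, of which GCLM was called in all untreated clones, TXNRD1 in A3, ME1 in D3 and D4, and OSGIN1 in none; capitals mark the match, and a match describes letters, not binding.
GCLM (chr1:93909431-93909489, minus strand, core in reverse, first base of the match at -34 from the start): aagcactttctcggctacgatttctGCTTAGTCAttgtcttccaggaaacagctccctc
TXNRD1, first start (chr12:104215655-104215713, plus strand, core forward, first base of the match at -99 from the start): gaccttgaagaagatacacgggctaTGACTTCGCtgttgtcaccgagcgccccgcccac
TXNRD1, second start (chr12:104286905-104286963, plus strand, core in reverse, first base of the match at -102 from the start): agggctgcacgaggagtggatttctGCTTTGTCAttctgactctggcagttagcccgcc
ME1 (chr6:83431155-83431213, minus strand, core forward, first base of the match at -137 from the start): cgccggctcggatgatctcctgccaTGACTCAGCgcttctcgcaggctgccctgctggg
OSGIN1 (chr16:83953118-83953174, plus strand, AP-1 motif, first base of the match at -97 from the start): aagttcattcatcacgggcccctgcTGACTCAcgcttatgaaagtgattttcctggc
A second core match began at -8 from the first start of TXNRD1 and another at 12 from the start of ME1. NQO1, SRXN1, GCLC and TALDO1 held neither motif in their windows. Sequence outside the windows was not searched, so elements farther from a start would be missed.

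In untreated tumours 5 or 6 of the 10 genes were higher in each clone than in wt, and SLC7A11 was lower. The genes were compared with limma in 1 fit over all arrays, and a difference was called at a p under 0.05 after Benjamini-Hochberg adjustment over the 17314 genes. In A3 6 of the 10 genes were higher than in wt and 1 was lower, against 18.5% of all genes called in either direction (10.1% higher and 8.36% lower). In D3 5 were higher and 1 lower, against 18.1% of all genes (9.69% higher and 8.4% lower), and in D4 5 were higher and 1 lower, against 20.1% (9.22% higher and 10.9% lower). The median difference of the 10 genes was 0.43 for A3, 0.25 for D3 and 0.24 for D4, and that of all genes 0.04, 0.01 and 0.05. Only NQO1, GCLM and SLC7A11 were called in every clone. The comparisons with wt share the untreated wt arrays and are not independent of each other. Every clone was passaged in vivo and wt was not. The arrays of clone and wt did not overlap for 7 genes of A3, 8 of D3 and 4 of D4, as they did not for 24.2%, 22.1% and 18.4% of all genes.

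**Figure D1:**
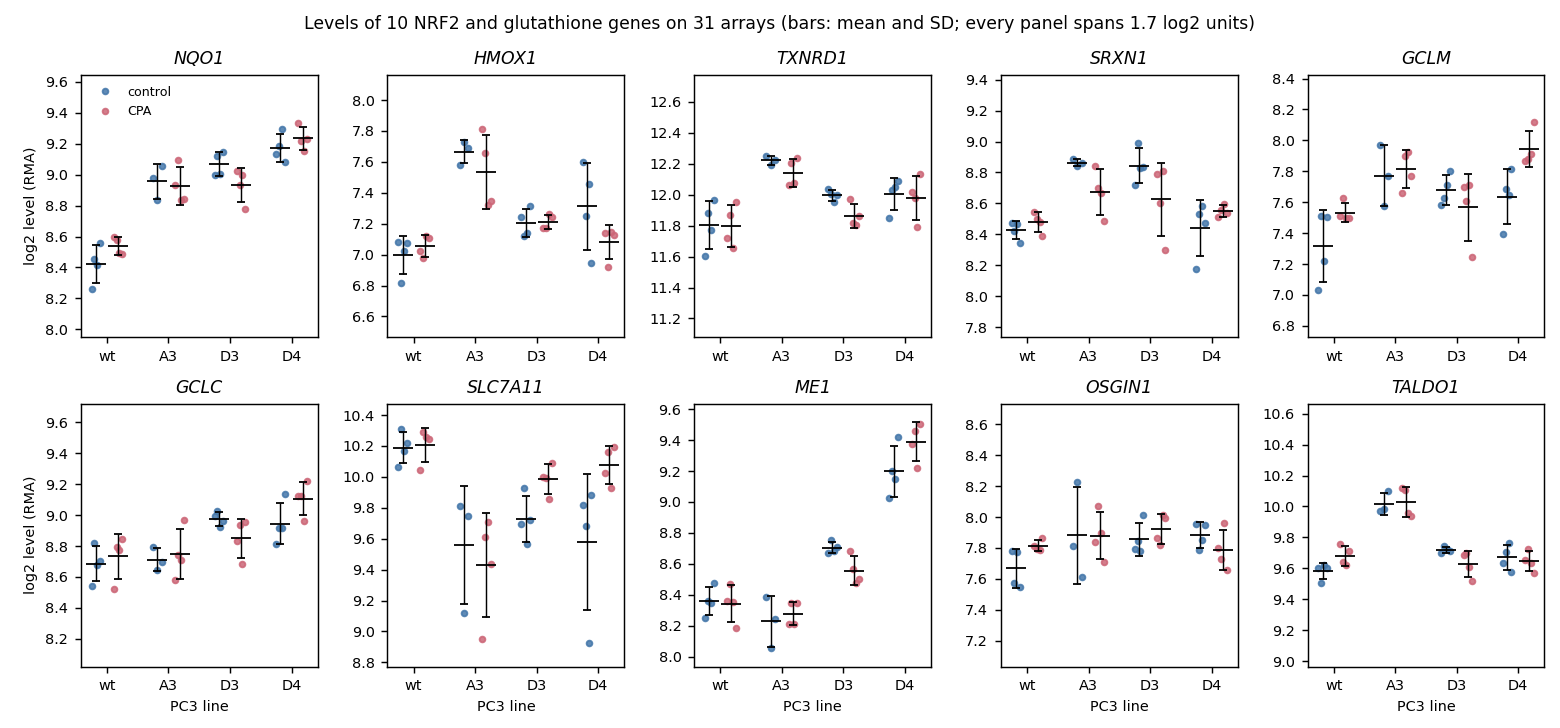
Log2 level of each of the 10 genes on every array (y axis; each panel spans 1.7 log2 units) by PC3 line (x axis), untreated in blue and CPA-treated in red, with the group mean and SD as bars. NQO1 lies lowest in wt, SLC7A11 lies highest in wt, ME1 stands highest in D4, and treated and untreated arrays of a line mostly overlap.

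NQO1, a quinone reductase and a widely used readout of NRF2 activity, showed the plainest gap between wt and the clones. Its untreated wt arrays read 8.26, 8.46, 8.41 and 8.56. The A3 arrays read 8.98, 8.84 and 9.05, the D3 arrays had a mean of 9.07 and reached 9.15, and the D4 arrays 9.13, 9.18, 9.29 and 9.08. Every clone array thus lay above every wt array. NQO1 was 1.45-fold higher in A3 (log2 difference 0.53 ± 0.08 SE, adjusted p 2.4e-05), 1.56-fold in D3 (0.65 ± 0.08 SE, adjusted p 4.8e-07) and 1.68-fold in D4 (0.75 ± 0.08 SE, adjusted p 3.1e-08). The clones followed in the order A3, D3 and D4, with neighbours that were not called apart: D3 exceeded A3 by 0.11 (95% interval -0.06 to 0.28) and D4 exceeded D3 by 0.10 (-0.05 to 0.26). D4 exceeded A3 by 0.22, with an adjusted p of 0.17.

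HMOX1 encodes haem oxygenase, which opens the haem ring and is induced by NRF2 and by release from BACH1. It was highest in A3, at 7.58, 7.73 and 7.69 untreated, against 7.08, 6.82, 7.02 and 7.08 in wt. The D3 arrays read 7.24, 7.12, 7.14 and 7.31, and the D4 arrays spread from 6.95 to 7.60. A3 lay above all wt and D3 arrays, and D4 overlapped every other line. HMOX1 was 1.59-fold higher in A3 than in wt (0.67 ± 0.12 SE, adjusted p 9.8e-05). In D4 the difference from wt was 0.31 ± 0.11 SE (adjusted p 0.036), and this call was lost without wt replicate 2 or 3 or D4 replicate 1 or 4 (differences 0.22 to 0.32, adjusted p 0.058 to 0.17). D3 differed from wt by 0.21 (adjusted p 0.21). The myeloid marker CD68 was also higher in A3 than in wt (0.42 ± 0.09 SE, adjusted p 0.00077) and in D4 (0.30), the only one of 9 measured myeloid markers called higher there, while LYZ was lower in D4 (-0.60, adjusted p 0.00013). The summed level of the 9 was 9.56 to 9.75 in untreated A3, 9.51 to 9.67 in D4, 9.45 to 9.52 in D3 and 9.37 to 9.50 in wt. The part of host cells in the HMOX1 difference was not tested.

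The genes of thioredoxin and peroxiredoxin reduction differed less evenly. TXNRD1, the thioredoxin reductase of the cytosol, read 11.60, 11.88, 11.77 and 11.97 in untreated wt and 12.25, 12.19 and 12.22 in A3. The A3 arrays lay above all wt arrays and close together. The difference was 0.42 ± 0.09 SE, or 1.34-fold (adjusted p 0.00098), while D3 (0.19, adjusted p 0.11) and D4 (0.20, adjusted p 0.085) were not called against wt. Without wt replicate 4 both were called (0.25 in each, adjusted p 0.047 and 0.038), and D4 also without D4 replicate 1 (0.25, adjusted p 0.04). SRXN1, the sulfiredoxin that repairs overoxidised peroxiredoxins, read 8.47, 8.42, 8.47 and 8.35 in wt. In A3 it read 8.89, 8.84 and 8.86, and in D3 8.72, 8.99, 8.83 and 8.84, all above wt. D4 read 8.18, 8.53, 8.59 and 8.48 and overlapped wt. SRXN1 was higher in A3 by 0.44 ± 0.10 SE (adjusted p 0.0024) and in D3 by 0.42 ± 0.09 SE (adjusted p 0.0019), and D4 differed from wt by 0.01 (95% interval -0.18 to 0.21).

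Glutamate-cysteine ligase carries out the first and rate-limiting step of glutathione synthesis with the catalytic subunit GCLC and the modifier subunit GCLM. GCLM read 7.03, 7.51, 7.22 and 7.50 in untreated wt. It read 7.97, 7.57 and 7.77 in A3, 7.58, 7.63, 7.71 and 7.80 in D3, and 7.39, 7.69, 7.65 and 7.82 in D4. The A3 and D3 arrays lay above all wt arrays, and D4 overlapped them. GCLM was higher in A3 by 0.46 ± 0.12 SE (adjusted p 0.0068), in D3 by 0.36 ± 0.11 SE (adjusted p 0.02) and in D4 by 0.32 ± 0.11 SE (adjusted p 0.04). Single arrays decided these calls. The A3 call was lost without A3 replicate 1 (0.36, adjusted p 0.066), the D3 call without wt replicate 1 or 3 or D3 replicate 5 (0.27 to 0.33, adjusted p 0.066 to 0.11), and the D4 call without wt replicate 1 or 3 or D4 replicate 2, 4 or 5 (0.22 to 0.32, adjusted p 0.074 to 0.16).

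GCLC followed another order, with wt and A3 low and D3 and D4 high. Its arrays read 8.54, 8.82, 8.68 and 8.70 in wt, 8.79, 8.64 and 8.70 in A3, 8.99, 9.03, 8.92 and 8.96 in D3, and 8.81, 8.91, 8.92 and 9.13 in D4. The D3 arrays lay above all of wt and A3, and D4 overlapped wt by its lowest array. GCLC was higher than in wt by 0.29 ± 0.09 SE in D3 (adjusted p 0.019) and by 0.26 ± 0.09 SE in D4 (adjusted p 0.035). A3 differed from wt by 0.03 (95% interval -0.17 to 0.22), and neither D3 (0.26, adjusted p 0.18) nor D4 (0.23, adjusted p 0.21) was called against A3. The call in D3 was lost without wt replicate 1 or D3 replicate 2 (0.24 and 0.27, adjusted p 0.083 and 0.056), and that in D4 without wt replicate 1, 3 or 4 or D4 replicate 4 or 5 (0.20 to 0.27, adjusted p 0.054 to 0.14).

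SLC7A11, the xCT chain of the cystine-glutamate antiporter that brings in cystine for glutathione, ran against the rest. It read 10.06, 10.31, 10.17 and 10.22 in untreated wt. The A3 arrays read 9.81, 9.12 and 9.74, the D3 arrays 9.69, 9.93, 9.57 and 9.72, and the D4 arrays 9.82, 9.68, 8.93 and 9.88. Every clone array lay below every wt array, and 1 array in A3 and 1 in D4 lay far below its group. SLC7A11 was lower than in wt by 0.63 ± 0.17 SE in A3 (1.55-fold, adjusted p 0.0099), by 0.46 ± 0.16 SE in D3 (adjusted p 0.044) and by 0.61 ± 0.16 SE in D4 (adjusted p 0.0064). The A3 difference was -0.41 without A3 replicate 2 (adjusted p 0.14) and the D4 difference -0.40 without D4 replicate 4 (adjusted p 0.053). The D3 call was lost without any 1 wt array or D3 replicate 1, 3 or 5 (-0.50 to -0.41, adjusted p 0.05 to 0.13).

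ME1, the cytosolic malic enzyme that makes NADPH from malate, separated D4 and, less far, D3 from the other lines. Its untreated arrays read 8.25, 8.36, 8.34 and 8.48 in wt and 8.38, 8.06 and 8.24 in A3. In D3 they read 8.67, 8.75, 8.68 and 8.71, and in D4 9.02, 9.20, 9.15 and 9.42. Wt and A3 overlapped, all D3 arrays lay above both, and all D4 arrays lay above D3. Relative to wt ME1 was 1.27-fold higher in D3 (0.35 ± 0.09 SE, adjusted p 0.0039) and 1.79-fold higher in D4 (0.84 ± 0.09 SE, adjusted p 2.5e-08), and A3 differed by -0.13 (adjusted p 0.39). TALDO1, the transaldolase of the pentose phosphate pathway, separated A3 from the other lines. It read 9.97, 9.98 and 10.10 in A3 and 9.60, 9.50, 9.62 and 9.60 in wt, with D3 between 9.70 and 9.74 and D4 between 9.58 and 9.77. A3 stood above every array of the other lines. The A3 difference from wt was 0.43 ± 0.07 SE (adjusted p 3.5e-05), against 0.14 in D3 (adjusted p 0.15) and 0.09 in D4 (adjusted p 0.36).

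OSGIN1, an oxidative stress induced growth inhibitor, was the member that was called in no comparison. Its untreated arrays read 7.55 to 7.78 in wt, 7.61 to 8.22 in A3, 7.78 to 8.01 in D3 and 7.78 to 7.96 in D4. The clones differed from wt by 0.22, 0.19 and 0.22, with adjusted p-values of 0.18, 0.21 and 0.12. A3 replicate 4 held the lowest A3 value, and without it A3 was called higher (0.35, adjusted p 0.029).

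**Figure D2:**
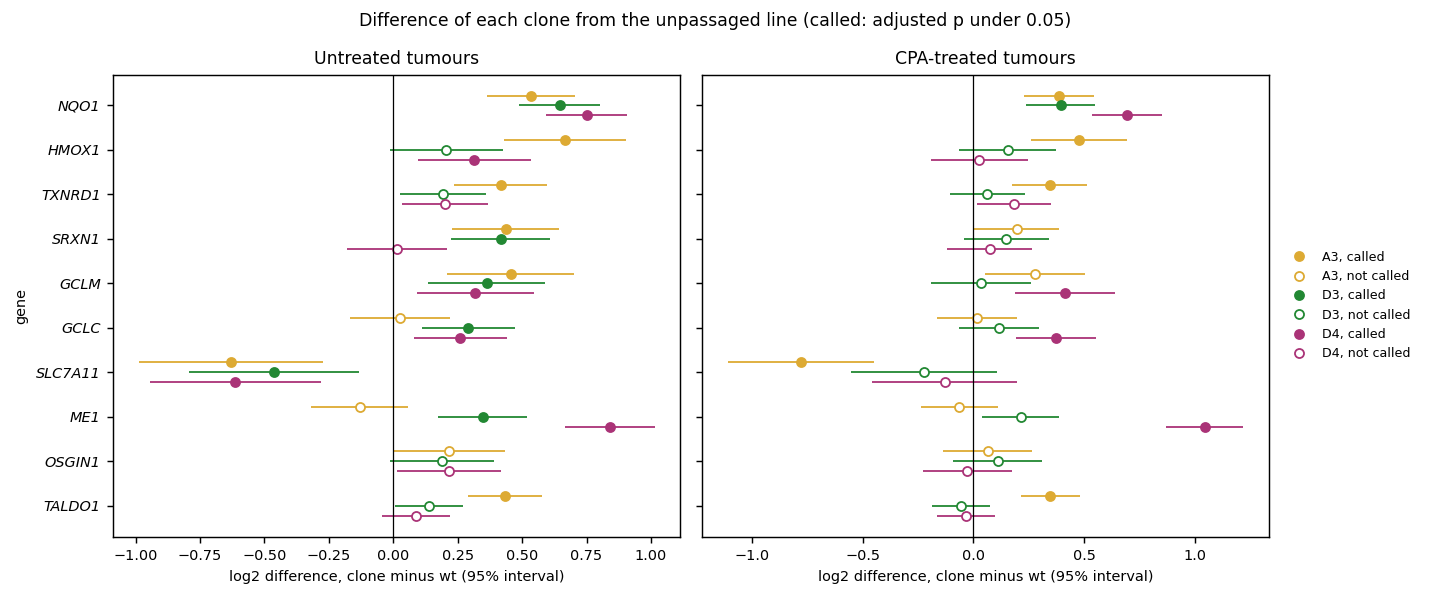
Log2 difference of each clone from wt (x axis, with 95% interval) for each gene (y axis) in untreated and in CPA-treated tumours; filled points were called. NQO1 was called in all 3 clones in both panels, SLC7A11 lay below 0 throughout, and ME1 in D4 stood at 0.84 and 1.05.

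Set against each other, untreated clones differed in few of the 10 genes, and ME1 differed in every pair. D3 had 1 gene higher and 2 lower than A3, against 2.27% of all genes called (1.3% higher and 0.97% lower). D4 had 1 higher and 2 lower than A3, against 3.77% (1.75% higher and 2.02% lower), and 1 higher than D3, against 0.323% (0.0924% higher and 0.231% lower). ME1 was 1.96-fold higher in D4 than in A3 (0.97 ± 0.09 SE, adjusted p 2.5e-08), 1.39-fold higher in D3 than in A3 (0.48 ± 0.09 SE, adjusted p 0.0031) and 1.41-fold higher in D4 than in D3 (0.49 ± 0.09 SE, adjusted p 0.0024). With only the compared groups in the fit the last 2 differences had adjusted p-values of 0.057 and 0.1, and ME1 between D4 and A3 remained called.

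TALDO1 was lower than in A3 in both resistant clones, by 0.30 ± 0.07 SE in D3 (adjusted p 0.016) and by 0.35 ± 0.07 SE in D4 (adjusted p 0.003). The D3 call was lost without A3 replicate 4 (-0.26, adjusted p 0.14), and with only the compared groups in the fit neither was called (adjusted p 0.13 and 0.26). HMOX1 was lower in D3 than in A3 by 0.46 ± 0.12 SE (adjusted p 0.026), a call lost without any 1 of the A3 arrays or D3 replicate 1, 2 or 3 (-0.50 to -0.43, adjusted p 0.05 to 0.12). Between D4 and A3 it differed by -0.35 (adjusted p 0.089), and by -0.45 without D4 replicate 1 (adjusted p 0.026). SRXN1 was lower in D4 than in A3 by 0.42 ± 0.10 SE (adjusted p 0.014), lost without A3 replicate 1 or 4 or D4 replicate 1 (-0.42 to -0.33, adjusted p 0.061 to 0.067) and at an adjusted p of 0.23 with only the compared groups. Against D3 it differed by -0.40, just short of the threshold at an adjusted p of 0.052, and was called without A3 CPA replicate 1 or 4, D3 CPA replicate 4 or 5 or D4 control replicate 4 (adjusted p 0.015 to 0.047).

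CPA itself moved none of the 10 genes past the threshold in any line. Of the 40 differences between treated and untreated tumours 0 were called with limma and 5 had an unadjusted p under 0.05; the smallest adjusted p was 0.1. Few genes of any kind were called for CPA. Of all genes 0.0462% were called in wt (0.00578% higher and 0.0404% lower) and 0.352% in A3 (0.104% higher and 0.248% lower). In D3 0.231% were called, with 0% higher, and in D4 1.03% (0.664% higher and 0.364% lower). The differences of the 10 genes had medians of 0.05, -0.02, -0.12 and 0.09 in the order wt, A3, D3 and D4, against 0.01, -0.0033, 0.01 and -0.03 over all genes. Of the 5 differences with a small unadjusted p 4 were in D4, the line with the largest share of all genes called. The share of all genes with an unadjusted p under 0.05 was not counted.

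In D4 SLC7A11 read 10.03, 10.16, 9.93 and 10.19 after CPA, above the untreated 9.82, 9.68, 8.93 and 9.88 on every array. The difference was 0.50 ± 0.16 SE (95% interval 0.17 to 0.83, adjusted p 0.1), and 0.28 without D4 control replicate 4. GCLM read 7.87, 7.88, 7.91 and 8.12 after CPA, also above every untreated D4 array, and differed by 0.31 ± 0.11 SE (95% interval 0.08 to 0.54, adjusted p 0.12). These were the only 2 genes whose D4 groups did not overlap, against 9.97% of all genes. ME1 (0.19, adjusted p 0.19) and HMOX1 (-0.23, adjusted p 0.21) overlapped between the groups. In the other lines SLC7A11 differed by 0.02 in wt (95% interval -0.31 to 0.35), by -0.13 in A3 (-0.49 to 0.22) and by 0.26 in D3 (-0.07 to 0.59).

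**Figure D3:**
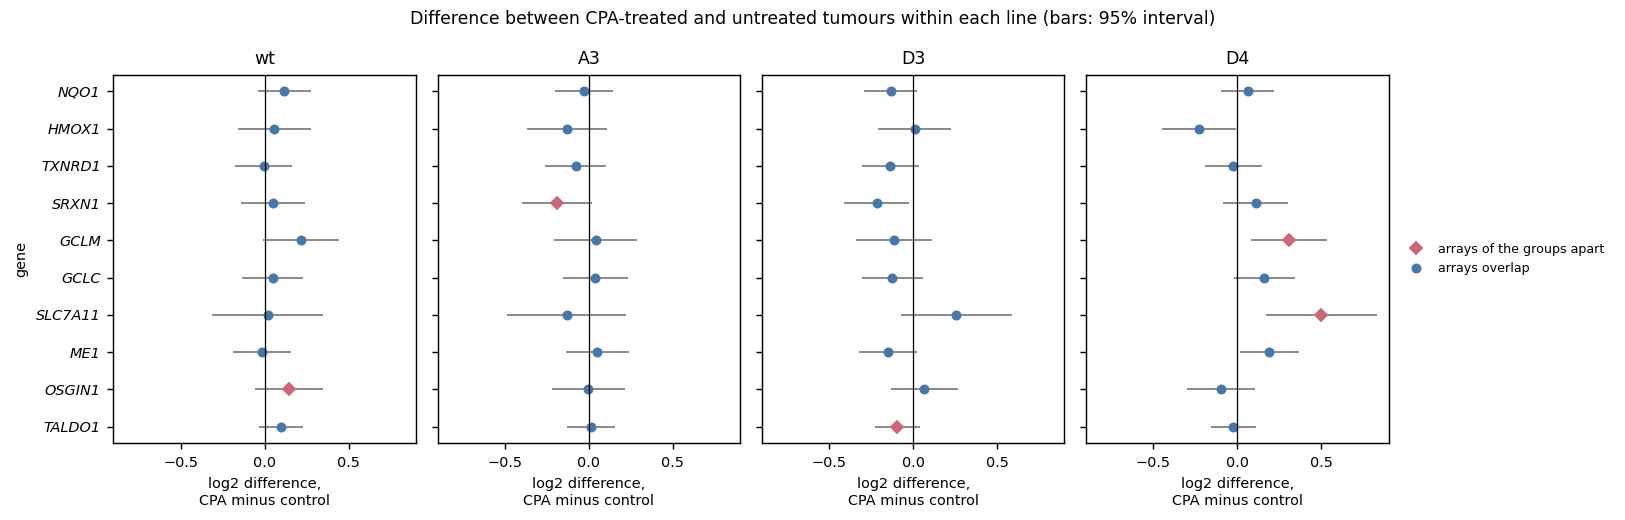
Log2 difference between CPA-treated and untreated tumours (x axis, with 95% interval) for each gene (y axis) in each line; red diamonds mark genes whose treated and untreated arrays did not overlap. No difference was called, and the largest was SLC7A11 in D4 at 0.50.

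SRXN1 leaned the other way in A3 and D3. In D3 it read 8.79, 8.60, 8.81 and 8.30 after CPA and differed by -0.22 ± 0.09 SE (adjusted p 0.35). In A3 it read 8.84, 8.70, 8.67 and 8.48 and differed by -0.19 ± 0.10 SE (adjusted p 0.79), without overlap with the untreated arrays. Other groups without overlap were OSGIN1 in wt (0.15, adjusted p 1) and TALDO1 in D3 (-0.09, adjusted p 0.52), so that 1 gene in each of these 3 lines stood apart, against 2.15% of all genes in wt, 5.04% in A3 and 9.6% in D3. NQO1 differed by 0.12 in wt (95% interval -0.04 to 0.28), -0.03 in A3 (-0.20 to 0.14), -0.13 for D3 (-0.29 to 0.02) and 0.06 in D4 (-0.10 to 0.22).

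Whether the CPA difference itself varied between lines was tested in 60 contrasts, of which 0 were called with limma and 10 had an unadjusted p under 0.05. In 5 of the 6 pairs of lines 0% of all genes were called, and between D4 and D3 0.0866%. How many of all genes had an unadjusted p under 0.05 was not counted. The CPA difference of ME1 was larger in D4 than in D3 by 0.34 ± 0.12 SE (adjusted p 0.098), that of GCLM by 0.42 ± 0.16 SE (adjusted p 0.11). The CPA difference of SLC7A11 was larger in D4 than in A3 by 0.63 ± 0.24 SE (adjusted p 0.29), and without A3 control replicate 2 this contrast was called (0.85, adjusted p 0.049).

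Among CPA-treated tumours the lines again differed, in 6 of the 10 genes between D4 and A3 and in 1 between D3 and wt. A3 had 4 genes higher and 1 lower than wt, against 16.3% of all genes called (6.74% higher and 9.6% lower). D3 had 1 higher, against 16.4% (6.28% higher and 10.1% lower), and D4 had 4 higher, against 15.1% (7.54% higher and 7.59% lower). Against A3, D3 had 1 higher and 2 lower, with 4.55% of all genes called (1.56% higher and 2.99% lower), and D4 had 4 higher and 2 lower, with 12.4% (7.41% higher and 4.97% lower). Against D3, D4 had 3 higher, with 8.05% of all genes called (4.56% higher and 3.49% lower). These comparisons and those within a line share the treated arrays.

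NQO1 was the only member called in every treated clone against wt, at 8.60, 8.58, 8.49 and 8.49 in wt and at least 8.78 on every clone array. It was higher by 0.39 ± 0.08 SE in A3 (adjusted p 0.00057), by 0.39 ± 0.08 SE in D3 (adjusted p 0.00059) and by 0.69 ± 0.08 SE in D4 (adjusted p 1.7e-07). In D4 the treated arrays read 9.34, 9.22, 9.15 and 9.23, above all treated A3 and D3 arrays. NQO1 was higher in D4 than in A3 by 0.31 ± 0.08 SE (adjusted p 0.0089) and than in D3 by 0.30 ± 0.08 SE (adjusted p 0.022), the latter lost without D3 replicate 5 or D4 replicate 1 or 2 (0.25 to 0.31, adjusted p 0.058 to 0.1).

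ME1 read 9.37, 9.46, 9.22 and 9.50 in treated D4, and between 8.18 and 8.69 on all treated arrays of the other lines. It was 2.07-fold higher in D4 than in wt (1.05 ± 0.09 SE, adjusted p 8.2e-10), 2.16-fold higher than in A3 (1.11 ± 0.09 SE, adjusted p 2.6e-10) and 1.78-fold higher than in D3 (0.83 ± 0.09 SE, adjusted p 1.4e-06). D3 itself was not called, at 0.21 above wt (adjusted p 0.082) and 0.28 above A3 (adjusted p 0.057); without A3 control replicate 1 or 2 or D4 control replicate 1 or 5 the latter was called (adjusted p 0.042 to 0.05). Array weights and a further quantile normalization called both (0.23 and 0.29 above wt, 0.31 and 0.31 above A3; adjusted p 0.0055 to 0.028), and the variance trend, the filter on dim genes and leaving out the 4 far arrays called D3 above A3 (adjusted p 0.037 to 0.045). TALDO1 was again highest in A3, with treated arrays from 9.94 to 10.12 and those of the other lines from 9.52 to 9.76. It was higher in A3 than in wt by 0.35 ± 0.06 SE (adjusted p 0.00024), and lower than in A3 by 0.40 in D3 (adjusted p 0.00019) and by 0.38 in D4 (adjusted p 0.00018).

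SLC7A11 was lowest in treated A3. It read 8.95, 9.61, 9.71 and 9.44 there, below all 12 other treated arrays, which began at 9.86. The difference from wt was -0.78 ± 0.16 SE in A3 (1.72-fold lower, adjusted p 0.00087), -0.22 in D3 (adjusted p 0.34) and -0.13 in D4 (adjusted p 0.7). Relative to A3 it was 1.57-fold higher in D4 (0.65 ± 0.16 SE, adjusted p 0.0082) and 1.47-fold higher in D3 (0.56 ± 0.16 SE, adjusted p 0.042). The D4 call was lost without A3 replicate 1 (0.49, adjusted p 0.059). The D3 call was lost without any 1 of 7 arrays, A3 CPA replicates 1 and 4, D3 control replicate 5 and each D3 CPA array (0.40 to 0.60, adjusted p 0.05 to 0.23).

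Both subunits of glutamate-cysteine ligase were higher in treated D4 than in treated wt. GCLM differed by 0.41 ± 0.11 SE (adjusted p 0.0097; 0.35 and 0.051 without D4 replicate 5) and GCLC by 0.37 ± 0.09 SE (adjusted p 0.0035). GCLC was also higher than in A3 (0.36 ± 0.09 SE, adjusted p 0.008), and GCLM than in D3 (0.38 ± 0.11 SE, adjusted p 0.036). The last call was lost without D3 replicate 3 or 5 or D4 replicate 1, 2 or 5 (0.27 to 0.41, adjusted p 0.051 to 0.17). In treated A3 and D3 neither subunit was called against wt, but GCLM in A3 (0.28, adjusted p 0.086) was called with only the compared groups (adjusted p 0.044), with array weights (0.031) and without the 4 far arrays (0.03).

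HMOX1 and TXNRD1 again had their highest means in A3. HMOX1 read 7.81, 7.65, 7.32 and 7.35 in treated A3 and 6.92 to 7.26 on all other treated arrays. It was higher than in wt by 0.48 ± 0.11 SE (adjusted p 0.0019) and lower in D4 than in A3 by 0.45 ± 0.11 SE (adjusted p 0.0055). CD68 was also higher in treated A3 than in wt (0.45), and the other 8 of 9 myeloid markers were not called, against 6.74% of all genes higher. CD68 (-0.28) and CD163 (-0.33) were lower in treated D4 than in A3. There 7 of the 9 were not called, and 4.97% of all genes were lower. The part of these markers in the HMOX1 difference was not tested. HMOX1 differed between D3 and A3 by -0.32 (adjusted p 0.087), and was called without A3 CPA replicate 3 or D4 control replicate 5 (-0.39 and -0.32, adjusted p 0.042 and 0.044). TXNRD1 was higher in A3 than in wt by 0.34 ± 0.08 SE (adjusted p 0.0033). Its difference between D3 and A3 (-0.28 ± 0.08 SE, adjusted p 0.044) was lost without any 1 of 14 arrays, 6 of them in the groups compared (A3 CPA replicates 1, 2 and 4 and D3 CPA replicates 3, 4 and 5), with adjusted p-values of 0.05 to 0.13. SRXN1 and OSGIN1 were not called between treated lines.

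NFE2L2 itself had a lower mean in each untreated clone than in wt. It was 8.96 in untreated wt and 8.59, 8.79 and 8.63 in A3, D3 and D4, and only the A3 difference was called (-0.37 ± 0.13 SE, adjusted p 0.045). KEAP1 was higher than in wt in A3 (0.32 ± 0.09 SE, adjusted p 0.017) and D3 (0.25 ± 0.09 SE, adjusted p 0.044) and at 0.21 in D4 (adjusted p 0.083). BACH1 was not called, with differences of -0.29, -0.22 and -0.23. Among treated tumours NFE2L2 was lower in A3 than in wt (-0.39, adjusted p 0.024) and higher in D4 than in A3 (0.43, adjusted p 0.02); within D4 it differed by 0.35 between treated and untreated tumours (adjusted p 0.12). Transcript levels do not measure NRF2 protein or its activity.

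The wider pathway was read from a list of 63 other genes, of which 54 were measured. Against wt 9 were higher and 6 lower in untreated A3, 11 and 6 in D3, and 7 and 6 in D4, with the others not called. Of all genes 10.1% were higher and 8.36% lower in A3, 9.69% and 8.4% in D3 and 9.22% and 10.9% in D4. CPA changed 0 of the 54 in each line. Of the list genes, those other than NFE2L2, KEAP1, BACH1, TXNIP, ABCC3, SLC7A5, STC2, PSAT1, MTHFD2, GARS1, UGDH, NDRG1 and SLC2A1 were named after their values were seen. In the group of 7 for cystine and glutathione supply, 5 were higher in D3 than in wt, 4 in D4 and 1 in A3, against 9.69%, 9.22% and 10.1% of all genes. SLC3A2, the partner chain of SLC7A11 in the antiporter, was higher in D3 (0.22, adjusted p 0.025) and D4 (0.28, adjusted p 0.0044), while SLC7A11 was lower. GSS, the second enzyme of glutathione synthesis (0.22 and 0.23), GSR, the glutathione reductase (0.19 and 0.26), and GGCT, a cyclotransferase that breaks down gamma-glutamyl peptides (0.33 and 0.29), were higher in both. GGCT was the gene higher in A3 (0.46), and CTH, which makes cysteine from cystathionine, was the fifth in D3 (0.33).

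In the NADPH supply group of 5, the pentose phosphate enzymes PGD (0.40) and TKT (0.47), the lactonase PGLS (0.28) and the isocitrate dehydrogenase IDH1 (0.31) were higher in A3 than in wt. PGD (0.34), PGLS (0.28) and TKT (0.33) were higher in D3, and PGD (0.30) in D4, against 10.1%, 9.69% and 9.22% of all genes in A3, D3 and D4. The thioredoxin group of 9 had 3 genes higher in A3 and 2 in each of D3 and D4. Each clone had 1 lower. Of all genes 10.1%, 9.69% and 9.22% were higher and 8.36%, 8.4% and 10.9% lower in A3, D3 and D4. The mitochondrial reductase TXNRD2 was higher in all clones (0.32, 0.26 and 0.38). TXNIP, which binds and inhibits thioredoxin, was lower in all (-0.67, -0.67 and -0.48, adjusted p 3.4e-05, 1.4e-05 and 0.00074).

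The detoxifying reductases include known NRF2 targets of human cells. Of 10 measured, 2 were lower than in wt in untreated A3, 4 in D3 and 4 in D4, with 0 higher and 8, 6 and 6 not called, against 8.36%, 8.4% and 10.9% of all genes lower. AKR1C1 was lower by 0.51 in A3, 0.54 in D3 and 0.56 in D4, and AKR1C2 by 0.56, 0.79 and 0.95. AKR1C3 was lower in D3 (-0.61) and D4 (-0.75), as was the lipase ABHD4 (-0.61 and -0.54). The AKR1C genes are close paralogs whose probes may bind each other's transcripts, so their values are not independent of each other. The conjugate exporter ABCC3 was lower than in wt in all 3 untreated clones (-0.73, -0.53 and -0.46, adjusted p 4.6e-06, 0.00012 and 0.00058). It was the only gene called between untreated lines of the 8 measured for iron, haem and export, against 8.36%, 8.4% and 10.9% of all genes lower. In treated tumours ABCC3 was again lower than in wt in A3, D3 and D4 (-0.68, -0.40 and -0.48). There SLC48A1 was higher in A3 (0.24) and ABCC4 lower in D3 (-0.23). Of 8 glutathione peroxidases and glutaredoxins, 1 was called between untreated lines, GPX8, lower in A3 than in wt (-0.46), against 8.36% of all genes lower. In treated tumours GLRX was lower than in wt in A3 (-0.33) and D3 (-0.35), and GPX8 in A3 (-0.55). GPX7 was higher than in wt in treated D3 (0.40) and GLRX2 in treated D4 (0.24). Of all genes 6.74% were higher and 9.6% lower in treated A3, 6.28% and 10.1% in D3, and 7.54% and 7.59% in D4. UGDH, which makes UDP-glucuronate, was not called between untreated lines; among treated tumours it was lower in A3 than in wt (-0.27, adjusted p 0.034) and higher in D4 than in A3 (0.26, adjusted p 0.047).

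**Figure D4:**
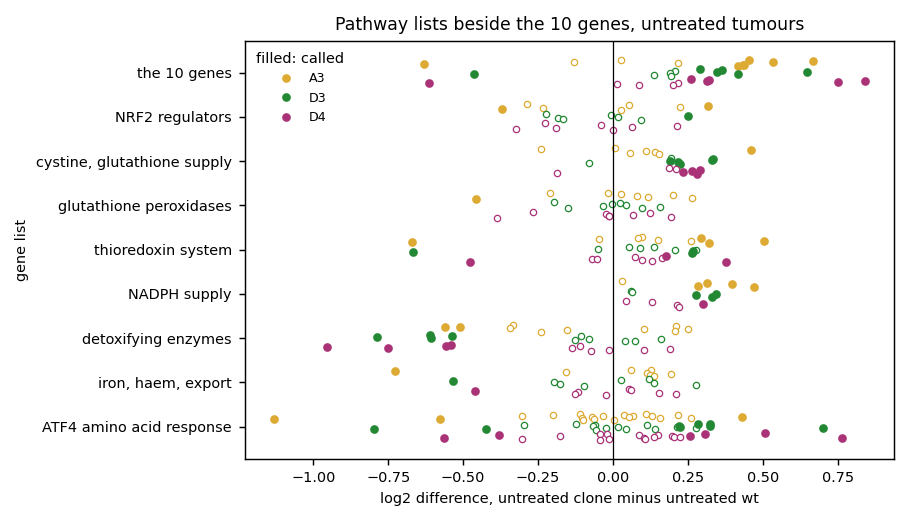
Log2 difference between untreated clone and untreated wt (x axis) for the 10 genes and each pathway list except the hypoxia genes (y axis). Points are the measured genes, coloured by clone and filled where called. The cystine and glutathione and the NADPH groups have called genes above 0 only, and the detoxifying enzymes below 0 only.

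SLC7A11 and several amino acid transporters and synthetases are also induced by ATF4, the transcription factor of the amino acid response, and 20 such genes were measured. In untreated D3 6 were higher than in wt and 2 lower, in D4 4 and 2, and in A3 1 and 2, against 9.69% and 8.4%, 9.22% and 10.9%, and 10.1% and 8.36% of all genes. SLC7A5, the large neutral amino acid transporter, was higher in D3 (0.70, adjusted p 1.4e-05) and D4 (0.76, adjusted p 3.2e-06) than in wt, and higher than in A3 in both (0.54 and 0.61). STC2, a secreted glycoprotein, was lower than in wt in all 3 clones (-1.13, -0.80 and -0.56). GARS1, a glycyl-tRNA synthetase, was higher than in wt in D3 (0.32, adjusted p 0.0069). Among treated tumours 7 of the 20 were higher in D4 than in A3 and 0 lower, against 7.41% and 4.97% of all genes. They were SLC7A5 (0.82), ASNS (0.53), AARS1 (0.47), PSAT1 (0.38), XPOT (0.31), WARS1 (0.28) and MTHFD2 (0.25), beside SLC7A11 at 0.65. In treated D4 against wt 6 of the 20 were higher and 2 lower, against 7.54% and 7.59% of all genes. There SLC7A11 differed by -0.13 and was not called. DDIT3, also of the 20, was lower than in wt in treated A3, D3 and D4 (-0.60, -0.57 and -0.45) and in untreated D4 (-0.38). Between treated D4 and D3 3 of the 20 were higher in D4, with 4.56% of all genes, and these were PSAT1 (0.33), XPOT (0.33) and MTHFD2 (0.28). HMOX1 can also be induced in hypoxia, and of 6 measured hypoxia genes 4 were lower than in wt in untreated A3, 6 in D3 and 1 in D4, with 0 higher, against 8.36%, 8.4% and 10.9% of all genes lower. The stress gene NDRG1 was lower in D3 (-1.84, adjusted p 0.00066) and the glucose transporter SLC2A1 in A3 (-0.99, adjusted p 0.023) and D3 (-1.34, adjusted p 0.0011). For CPA within D4 they differed by -1.23 and -0.84 (adjusted p 0.084 and 0.11).

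Across the 31 arrays the genes most like each member were given as a description, since the arrays share lines and treatments. NQO1 ran closest to SNRPC (Pearson r 0.947) and NUP93 (0.940), SLC7A11 to USP53 (0.950) and SLC35A3 (0.939), and ME1 to AGPAT5 (0.915) and LEPROTL1 (0.911). TALDO1 ran closest to PSMC3 (0.921) and ECHS1 (0.913), GCLM to ATP1B3 (0.910) and PRIM2 (0.902), and TXNRD1 to VCL (0.902) and CORO1C (0.900). The other pairs were GCLC with MRS2 (0.867) and SRPK1 (0.851), HMOX1 with POLR2F (0.849) and POLR2E (0.845), SRXN1 with CLTA (0.841) and PHB2 (0.840), and OSGIN1 with RASGRP2 (0.805) and RGS3 (0.771). None of the 10 had another member among its nearest pair by rule, since the rule set members aside.

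Between members the likeness was uneven. GCLC and ME1 correlated at 0.792 over the 31 arrays and HMOX1 and TALDO1 at 0.787, whereas HMOX1 and SLC7A11 correlated at -0.754. With each group's mean removed the first pair stood at 0.535, the second at 0.379 and the third at -0.475. By this measure TXNRD1 and GCLC (0.676) and GCLM and ME1 (0.634) were the closest pairs, and HMOX1 and GCLC (-0.565) the most opposed.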

How the data were processed

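Total RNA of PC3 xenografts was extracted with Trizol, labelled with biotin and hybridised to Human Gene 1.0 ST arrays, per the labels' protocols. The deposited log2 values of 23989 probe sets on 31 arrays come from RMA, per the submitters' processing notes; its software version is not given in the sources used here. RMA brings arrays toward a common distribution, so that a change shared by most genes could be hidden. The deposited arrays still differed in median (6.59 to 6.73) and in interquartile range (2.64 to 3.02). Their values ran from 1.27 to 14.1.

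Gene names came from the platform annotation (17624 probe sets with 1 symbol, 411 with several, 5954 with none), and the set with the highest mean was kept for the 276 genes with several, which left 17314 genes. Group means of line and treatment were fitted with limma 3.58.1 in R 4.3.3 over all 31 arrays, with 23 residual degrees of freedom and 22 contrasts. P-values were adjusted over all genes within a contrast. The members, lists and rules were chosen with earlier results of these data known. Named were all 10 members, NFE2L2, KEAP1 and BACH1, the 4 list genes of smallest adjusted p in each of 4 families of comparisons, and for each member the 2 genes of highest correlation; other list genes were chosen after their values were seen.

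The number of arrays limits the precision: a difference between groups of 4 had a standard error of 0.105 at the median spread. On simulated data with 200 of 17314 genes changed, the fit recovered 62% of changes of 0.5 and 98% of changes of 1 for untreated A3 against wt, 68% and 99% for CPA in wt, and 24% and 94.5% for the CPA difference between D4 and A3. In the data 3200, 8 and 0 genes were called in these comparisons. Recovery depends on how many genes change, so the simulated shares need not hold for these data. Replicate numbers come from the sample titles. The labels do not say that the numbers pair samples. With group means removed, same-numbered arrays correlated at 0.155 to 0.408 in untreated D3 and wt and at 0.214 to 0.425 in untreated D4 and D3. In every other comparison the lowest correlation was below these, as in untreated D4 and wt (-0.249 to 0.6). Differently numbered arrays were not set beside them, so these values do not show a pairing. For untreated D3 against wt and D4 against D3 a block on the number changed no member call. MAFG, MAFK, FTH1, PIR, CBS, GGT1, PRDX5 and AKR1B1 were not analysed here. The alternatives are given with their effect at the end; leaving out the 4 arrays farthest from their group mean was chosen after seeing the data.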

Additional observations from a re-analysis of the deposited data

Results flagged for a closer look

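Of 70 groups of 4 arrays tested, 2 held an array far from the other 3, and chance alone flags about 1 group in 20. HMOX1 in CPA-treated D4 was 6.92 in replicate 2, with the next array at 7.13. GCLM in CPA-treated wt was 7.62 in replicate 2, with the next array at 7.51.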

How the results depend on the processing

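Across 6 untreated line comparisons 26 of 60 member differences were called, against 10.5% of such differences over all genes. With only the compared groups in the fit, where fewer arrays set the spread, 17 were called. Calls lost there besides those of ME1, TALDO1 and SRXN1 given above were GCLM in A3 and D4 (adjusted p 0.063 and 0.14), GCLC in D4 (0.13) and HMOX1 in D4 (0.16) against wt. Leaving out 1 array gave 21 to 27 calls between untreated lines and 0 for CPA within a line. Among treated tumours it gave 18 to 24 of 60 (22 in the main analysis, against 12.1% over all genes). For the difference of the CPA effect between lines it gave 0 to 1. With the replicate number as a block these 4 counts were 22, 0, 22 and 0. The block lost the untreated calls of HMOX1 and TALDO1 between D3 and A3 (adjusted p 0.065 and 0.053) and of GCLM and GCLC between D4 and wt (0.055 each), and SLC7A11 between treated D3 and A3 (0.085). Whether the number pairs these arrays is not known. The block changed no other call except that GCLC between treated D4 and D3 passed (0.046). Under the variance trend, array weights, quantile normalization, median centring, the filter on dim genes, all probe sets, a second probe set and without the 4 far arrays, the untreated count stayed between 24 and 29 and the treated count between 20 and 28. The calls of SLC7A11 between untreated D3 and wt and of NQO1, GCLM, TXNRD1 and SLC7A11 between treated D3 and another clone, and of GCLM between untreated D4 and wt, were lost under 1 or more of these (adjusted p 0.053 to 0.096). No call changed sign under any alternative. Several alternatives cannot change a difference, only its p-value. These are the compared groups alone, the variance trend, the filter on dim genes, all probe sets, and leaving out an array of another group. The second probe set changed no member's values either, since each member has 1 probe set. Of 48 member calls 27 held under every alternative, and 18 were lost without at least 1 array. HMOX1 between untreated D4 and wt fell from 0.31 to 0.16 with array weights (adjusted p 0.34) and to 0.10 without the far arrays (adjusted p 0.68). Of simulated differences of 0.5 in the CPA effect between D4 and A3, 24% were recovered, so that effects of this size could be missed.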
